A study of Homo sapiens with 4 samples.

Results

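The enzymes that carry out mitochondrial beta-oxidation were examined at the RNA level after octanoate exposure of A375, an established cell line from a human melanoma. They comprise 10 genes, listed by symbol, of the 56832 genes in the deposited expression table: ACADVL, ACADL, ACADM, ACADS, ACADSB, HADHA, HADHB, HADH, ECHS1 and ACAA2. All 10 were found in the table, and all 10 were among the 20250 genes tested. The genes were listed by function and not by a cut on expression values, but with earlier results of these data known. Wild-type A375 cells in serum-containing medium received 1 mM octanoate, a saturated medium-chain fatty acid, or its isopropanol vehicle for 48 h, and 2 libraries were sequenced per group. The stated purpose was to find genes and signatures that rise under the treatment. The labels do not say whether the replicates came from separate cultures, so the spread between libraries behind the p-values may be technical. In limma this spread was drawn in part from other genes of similar level, not from a gene's own libraries alone.

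In beta-oxidation a fatty acyl-CoA is shortened in repeated rounds of 4 reactions inside the mitochondrion. An acyl-CoA dehydrogenase introduces a double bond and passes electrons to the electron transfer flavoprotein, an enoyl-CoA hydratase adds water, a hydroxyacyl-CoA dehydrogenase reduces NAD+, and a thiolase releases acetyl-CoA. Enzymes differ in the acyl chain length they prefer. Long chains are handled by ACADVL and by the trifunctional protein, a complex of HADHA and HADHB bound to the inner membrane. Shorter chains are handled by soluble matrix enzymes: ACADM acts on medium chains, octanoyl-CoA among them, and ACADS on butyryl-CoA. The matrix enzymes ECHS1, HADH and ACAA2 carry out the later reactions on shorter chains. Octanoate can enter mitochondria without the carnitine shuttle that long chains need. In many tissues genes of this pathway are targets of the PPAR nuclear receptors, which fatty acids bind.

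Libraries held between 67785956 and 78005035 reads, recovered from the deposited values. Of the 9 melanocyte lineage markers, 8 had a mean normalised count of at least 10, led by SOX10 at 34072 to 41363 in the 4 libraries, while the pigment enzyme gene TYR was at 1.93 to 3.93. The summed level of the 9 was 49411 and 45156 in vehicle and 43768 and 38697 in octanoate, most of it SOX10, which was not called (log2 difference -0.12, limma adjusted p 0.209). Of the other lineage markers, S100B fell from 4234 and 3741 to 1917 and 1746 (log2 difference -1.12, limma adjusted p 9.15e-12). MITF, the melanocyte master regulator, fell from 3533 and 3330 to 2414 and 2511 (log2 difference -0.48, limma adjusted p 2.33e-06). PMEL, a pigment granule gene, rose from 65.8 and 65.9 to 98.2 and 95.4 (log2 difference 0.55, limma adjusted p 0.0289), a call that was lost in 6 of 16 alternatives, among them leaving out any 1 library. Of the blood cell markers, PTPRC and CD3E stayed at or below 10.8, and CD14, at 11.6 to 18.3, was not called. The summed level of the 4 epithelial markers was 1166 and 988 in vehicle and 307 and 266 in octanoate, mostly KRT14. KRT14 fell from 1110 and 942 to 266 and 218. EPCAM and CDH1 were not called (log2 differences 0.03 and -0.12, limma adjusted p 0.947 and 0.894), and KRT5 was too low to be tested. That of the 3 endothelial markers was 207 and 201 in vehicle and 347 and 338 in octanoate, mostly PECAM1. PECAM1 rose from 121 and 122 to 249 and 221, and VWF was called higher as well (limma adjusted p 0.048). CDH5 was not called (log2 difference -0.31, limma adjusted p 0.659). The 3 fibroblast markers together gave 827 to 895 in all libraries. The part of these differences in the results below was not tested. In bulk RNA, fewer cells of a kind and less RNA per cell cannot be told apart.

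Among the cycle genes, 5 rose under octanoate, 2 fell and 3 were not called. The genes that rose were ACAA2, ACADVL, ACADS, HADHA and HADHB, by 1.14-fold to 1.50-fold, and those that fell were ACADSB and ECHS1. Over all genes tested, 29.9% were called, 16.2% higher and 13.7% lower, where called means a Benjamini-Hochberg adjusted p under 0.05 in limma. Among the 9003 tested genes with a mean of at least 1000, which include 8 of the 10 cycle genes, 38.1% were called. The median log2 difference was 0.10 over the 10 cycle genes and 0.01 over all genes tested. Vehicle and octanoate libraries did not overlap for 7 of the 10 genes, 5 higher and 2 lower in octanoate, against 63.1% of all genes tested, 32.6% higher and 30.5% lower. The share of 7 in 10 lies near that background. The counts of 5 and 2 were 1 and 0 without an intensity trend in the variance prior, where 1625 genes in all were called, and 3 and 1 with no filter on low values, where 2595 were. Only 3 cycle genes were called higher without vehicle 2 or without octanoate 1, and 1 lower without vehicle 1 or without octanoate 2. Of all calls 54.1% were higher; over protein-coding genes of GENCODE 29 this share was 52.2%, and 41.9% once trends with GC content and length were taken out, a setting in which the same 7 cycle genes were called in the same directions. That correction covers 69.9% of the genes tested, so as a check over all of them it is void. All differences are octanoate minus vehicle on the log2(normalised count + 1) scale.

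**Figure D1:**
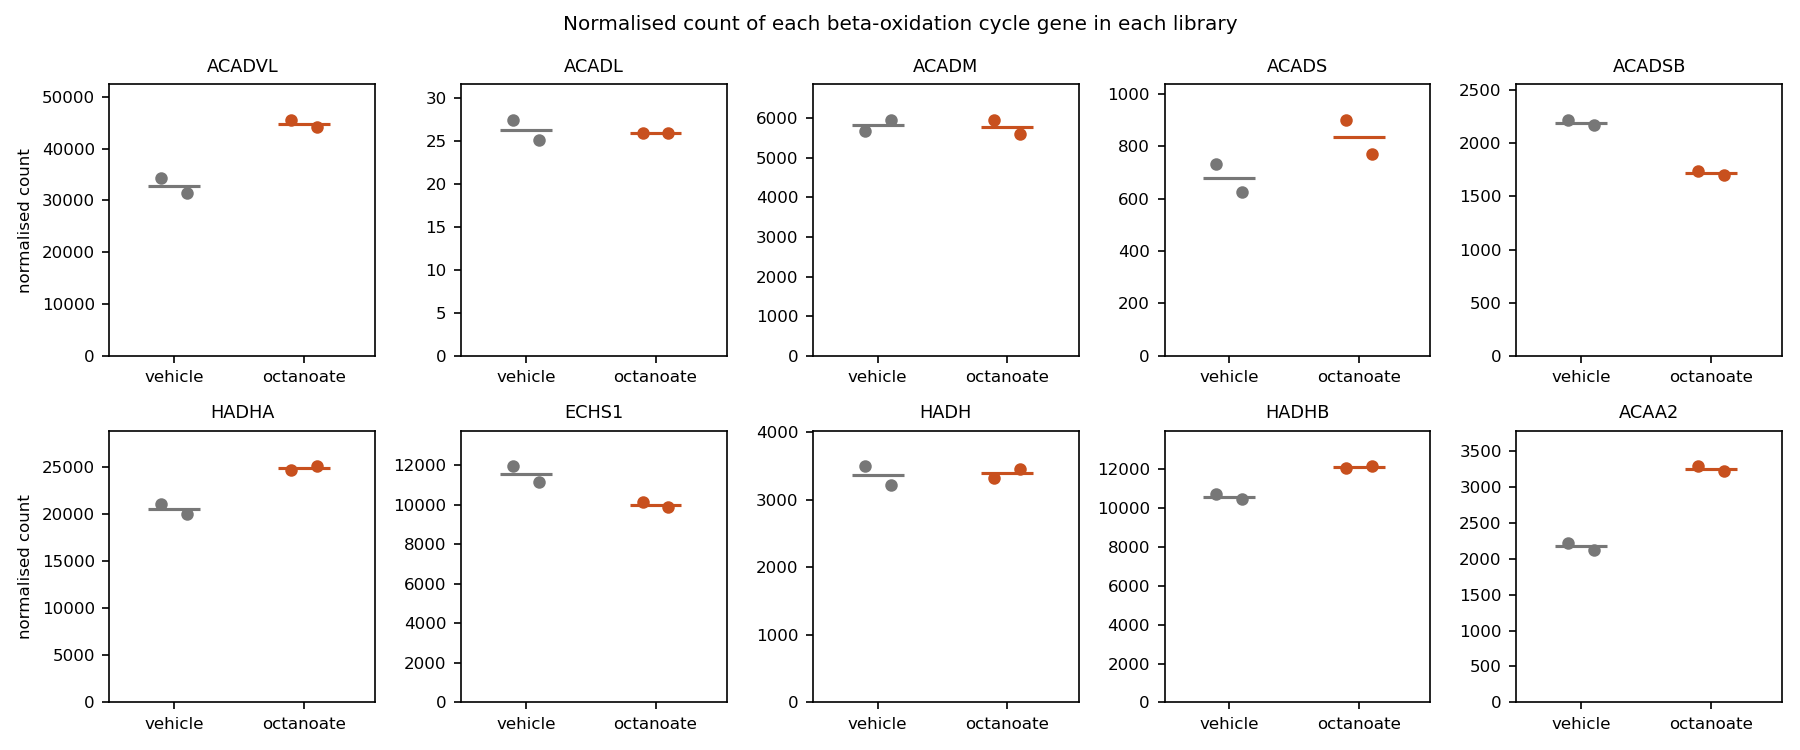
Normalised count (vertical axes, each starting at 0) of the 10 cycle genes in each library, with vehicle in grey, octanoate in orange and lines at the group means of 2 libraries. ACADVL, ACADS, HADHA, HADHB and ACAA2 lie higher and ACADSB and ECHS1 lower in both octanoate libraries, and the groups overlap for ACADL, ACADM and HADH.

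The first step of the cycle is catalysed by the acyl-CoA dehydrogenases, of which 5 were measured: 2 rose, 1 fell and 2 were not called. ACADVL, the very-long-chain dehydrogenase (chromosome 17, 7217125 to 7225273 on the plus strand, GRCh38), had normalised counts of 34348 and 31362 in vehicle and 45538 and 44097 in octanoate. Both treated libraries lay well above both controls. The mean went from 32855 ± 2111 to 44818 ± 1019 (SD, n = 2 each). In limma the log2 difference was 0.45 (SE 0.06, adjusted p 3.41e-06). This corresponds to a 1.37-fold rise, with a 95% interval from 1.25 to 1.49. An exon of DLG4, on the opposite strand, overlaps ACADVL exons by 85 bases in GENCODE 29, and use of strand in counting is not given in the sources used here. DLG4 also rose, by 0.45 on the log2 scale, with normalised counts of 2163 and 2144 in vehicle and 3114 and 2783 in octanoate, and its part in the ACADVL value was not tested.

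ACADM, the medium-chain dehydrogenase (chromosome 1, 75724347 to 75787575, plus strand), had normalised counts of 5676 and 5951 in vehicle and 5951 and 5593 in octanoate. The groups overlapped, and the difference was smaller than the spread within each of them. Its log2 difference was -0.01, with a 95% interval from -0.13 to 0.11 (limma adjusted p 0.918), so the interval reached a 1.08-fold rise at most. At its 3′ end ACADM overlaps exons of RABGGTB on the same strand by 157 bases in GENCODE 29. RABGGTB, which encodes a subunit of a Rab prenylating enzyme, rose from 12153 and 11684 in vehicle to 14575 and 14162 in octanoate. The part of RABGGTB reads in the ACADM value and its interval was not tested.

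The short-chain dehydrogenase genes ACADS and ACADSB moved in opposite directions. ACADS, whose enzyme oxidises butyryl-CoA (chromosome 12, 120725735 to 120740008, plus strand), had normalised counts of 731 and 627 in vehicle and 900 and 772 in octanoate. The lower octanoate library lay only slightly above the higher vehicle library. Its log2 difference was 0.30 (SE 0.09, limma adjusted p 0.0176). This call was lost in 5 of 16 alternatives, among them DESeq2 on the recovered reads (adjusted p 0.0915), and the authors' deposited table gave ACADS an adjusted p of 0.0754. Without vehicle 2 its log2 difference was 0.19 (limma adjusted p 0.246), and without octanoate 1 it was 0.19 (limma adjusted p 0.230).

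ACADSB, which encodes the short/branched-chain dehydrogenase of isoleucine breakdown (chromosome 10, 123008979 to 123058311, plus strand), had normalised counts of 2219 and 2169 in vehicle and 1741 and 1706 in octanoate. Here the replicates lay close together and the groups far apart. The mean fell from 2194 ± 35.4 to 1724 ± 25.1 (SD, n = 2 each), to 0.786-fold (log2 difference -0.35, SE 0.07, limma adjusted p 0.000237).

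ACADL, the long-chain dehydrogenase (chromosome 2, 210187939 to 210225491, minus strand), was close to the lower limit of what was tested. Its normalised counts were 27.5 and 25.2 in vehicle and 26.0 and 26.0 in octanoate, from 24 to 28 reads per library. Those few reads gave an interval from 0.630-fold to 1.55-fold (limma adjusted p 0.977), so a change of the size seen in ACADVL was not detectable at this depth. GENCODE 29 places exons of the long non-coding gene AC006994.2 over 232 bases of ACADL exons on the opposite strand, and that gene had a normalised count of 0 in all 4 libraries.

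The second step, hydration of the double bond, is shared by HADHA for long chains and ECHS1 for short chains, and these genes moved in opposite directions. HADHA encodes the alpha subunit of the trifunctional protein, which holds the long-chain hydratase and the long-chain hydroxyacyl-CoA dehydrogenase (chromosome 2, 26190635 to 26244726, minus strand). Its normalised counts were 21077 and 19992 in vehicle and 24671 and 25035 in octanoate, and every treated library exceeded every control. The mean rose from 20534 ± 767 to 24853 ± 258 (SD, n = 2 each), 1.21-fold (log2 difference 0.28, SE 0.06, limma adjusted p 0.000603).

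ECHS1, the short-chain enoyl-CoA hydratase, which also serves valine breakdown (chromosome 10, 133362480 to 133373689, minus strand), had normalised counts of 11949 and 11158 in vehicle and 10126 and 9899 in octanoate. Both octanoate libraries lay below both vehicle libraries. The mean fell from 11554 ± 560 to 10012 ± 161 (SD, n = 2 each), to 0.867-fold (log2 difference -0.21, SE 0.06, limma adjusted p 0.00811). The fall was not called without vehicle 1 (log2 difference -0.16, limma adjusted p 0.109) or without octanoate 2 (log2 difference -0.19, limma adjusted p 0.0730).

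For the third step, HADH encodes the matrix hydroxyacyl-CoA dehydrogenase of medium and short chains (chromosome 4, 107989714 to 108035175, plus strand). Its normalised counts were 3492 and 3223 in vehicle and 3326 and 3456 in octanoate, so the groups overlapped. The log2 difference was 0.01, with a 95% interval from -0.11 to 0.14 (limma adjusted p 0.889). HADHA, the long-chain counterpart at this step, rose as given above.

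Both thiolase genes of the fourth step rose. HADHB, the beta subunit of the trifunctional protein (chromosome 2, 26243170 to 26290468, plus strand), had normalised counts of 10726 and 10458 in vehicle and 12054 and 12155 in octanoate. The gap between the groups was larger than the spread within them, but the rise was the smallest of those called, 1.14-fold (log2 difference 0.19, SE 0.06, limma adjusted p 0.0103). It fell short of the threshold without vehicle 2 (limma adjusted p 0.0681), without octanoate 1 (0.0524) and without octanoate 2 (0.0784), at log2 differences of 0.17, 0.20 and 0.19.

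ACAA2 encodes the matrix 3-ketoacyl-CoA thiolase of medium and shorter chains (chromosome 18, 49782167 to 49813960, minus strand). Its normalised counts were 2218 and 2124 in vehicle and 3282 and 3214 in octanoate. Replicates differed little and the groups stood far apart. The mean rose from 2171 ± 66.9 to 3248 ± 48.0 (SD, n = 2 each), 1.50-fold with a 95% interval from 1.37 to 1.64 (log2 difference 0.58, SE 0.06, limma adjusted p 1.14e-07). Of the 10 cycle genes it changed most, and it was called in all 16 alternatives. Its count carries an uncertainty: in GENCODE 29 a transcript of ACAA2 shares 991 bases at 95.4% identity with the processed pseudogene AC231533.2, and the gene AC090227.1 on the same strand overlaps 385 bases of its exons. Neither symbol was among the 56832 genes with deposited values, and their part in the ACAA2 value was not tested.

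**Figure D2:**
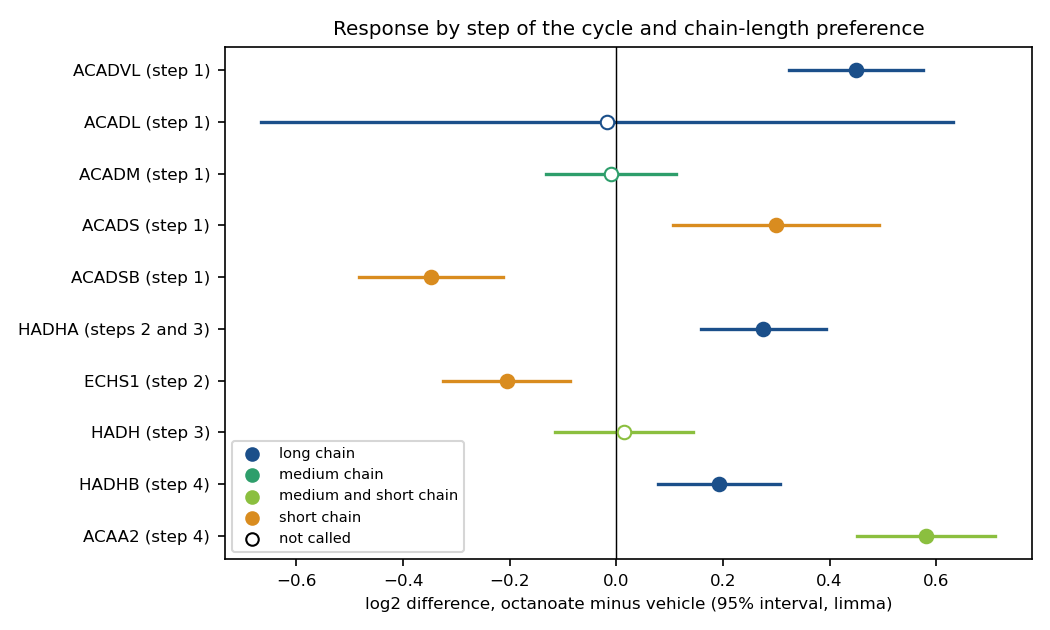
Log2 difference between octanoate and vehicle (horizontal axis) for the 10 cycle genes in order of the cycle's steps, with 95% intervals from limma, coloured by chain-length preference and open where not called. Of the long-chain genes ACADVL, HADHA and HADHB lie above 0, and of the short-chain genes ECHS1 and ACADSB lie below 0 and ACADS above.

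By chain-length preference, 3 of the 4 long-chain genes rose and none fell, with ACADL, at 24 to 28 reads per library, not called. The medium-chain gene ACADM was not called. Of the 3 short-chain genes, ACADS rose and ACADSB and ECHS1 fell. The genes that serve both medium and short chains divided into a rise of ACAA2 and no call for HADH. Median log2 differences were 0.23 for the long-chain genes, -0.21 for the short-chain genes and 0.01 over all genes tested. The short-chain median is the value of ECHS1 alone, and ACADSB, grouped with it, encodes an enzyme of isoleucine breakdown. Over all genes tested 16.2% were called higher and 13.7% lower, and 18.1% and 20% of those with a mean of at least 1000. By step, the counts of genes called higher and lower were 2 and 1 of 5 for the dehydrogenases, 1 and 1 of 2 for the hydratases, 1 and 0 of 2 for the hydroxyacyl dehydrogenases, and 2 and 0 of 2 for the thiolases. Differences between single cycle genes in their response were not tested.

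Ratios of reads between cycle genes within a library, which the scaling of libraries cannot affect, were compared next. HADHA and HADHB, subunits of the same complex, had a ratio of 1.96 and 1.91 in vehicle and 2.05 and 2.06 in octanoate. The groups did not overlap, but the mean ratio was only 1.06-fold higher. By contrast, the ratio of HADHA to ECHS1, the long-chain and short-chain hydratases, was 1.76 and 1.79 in vehicle and 2.44 and 2.53 in octanoate. That is a 1.40-fold higher mean ratio, with no overlap. The ratio of ACADVL to ACADM was 6.05 and 5.27 in vehicle and 7.65 and 7.88 in octanoate. Between the thiolases, ACAA2 over HADHB was 0.207 and 0.203 in vehicle and 0.272 and 0.264 in octanoate, so the matrix thiolase gained on the membrane-bound one. ACADSB over ACADS was 3.03 and 3.46 in vehicle and 1.93 and 2.21 in octanoate, the largest shift of the 10 ratios computed. The groups did not overlap in any of these 10. How often ratios of other gene pairs separate was not computed, and 63.1% of all single genes tested did so. Together the 10 genes held 0.122% and 0.120% of all reads in vehicle and 0.143% and 0.144% in octanoate.

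**Figure D3:**
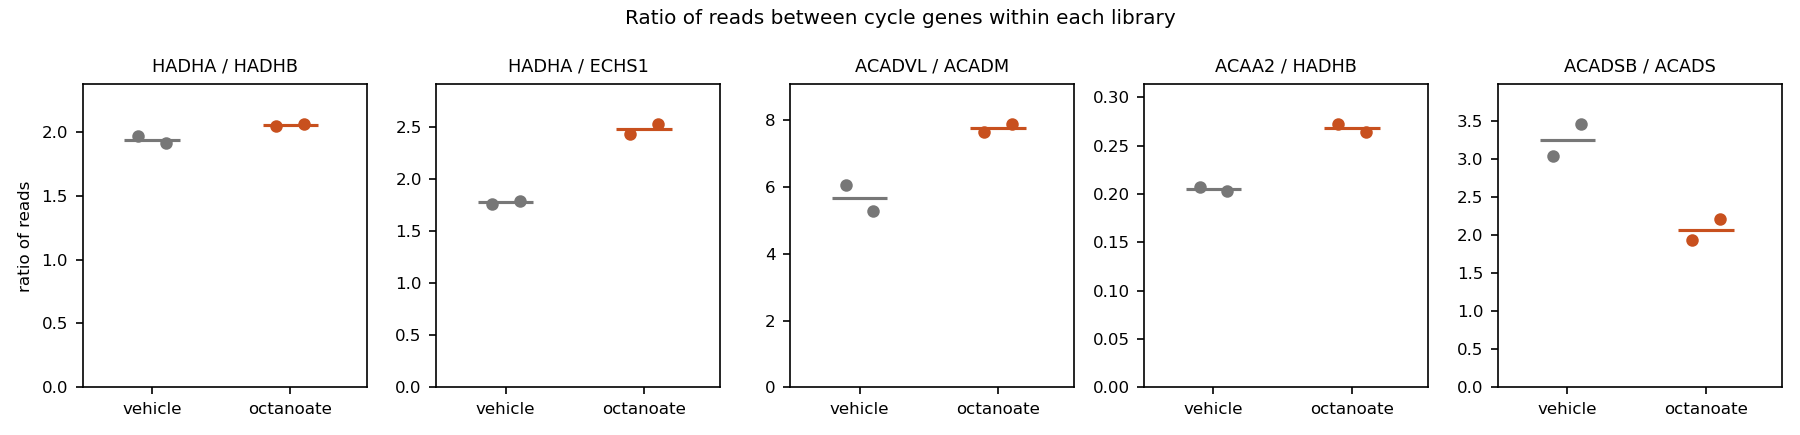
Ratio of reads between pairs of cycle genes within each library (vertical axes, each starting at 0), with vehicle in grey, octanoate in orange and lines at the group means of 2 libraries. HADHA / HADHB lies between 1.91 and 2.06, with the octanoate libraries slightly higher, while HADHA / ECHS1, ACADVL / ACADM and ACAA2 / HADHB are higher and ACADSB / ACADS lower in both octanoate libraries.

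Levels were compared between genes only after division by transcript length, as normalised counts per kilobase of the principal transcript in GENCODE 29. ACADVL stood highest in vehicle, at 14143 ± 909 per kilobase (SD, n = 2). ECHS1 at 7145 ± 346 and HADHA at 6761 ± 253 followed, and their vehicle libraries overlapped. HADHB came next at 5182 ± 93.0, then ACADM at 2220 ± 74.1, HADH at 1756 ± 99.5 and ACAA2 at 648 ± 20.0. ACADSB at 375 ± 6.04 and ACADS at 348 ± 37.9 did not differ beyond their spread, and ACADL was lowest at 10.4 ± 0.638. In octanoate ACADVL reached 19293 ± 439 per kilobase. HADHA at 8183 ± 84.8 then lay above ECHS1 at 6192 ± 99.3, and ACADS at 429 ± 46.5 above ACADSB at 294 ± 4.28, without overlap of the libraries in either pair. Divided instead by the length of all annotated exons, ECHS1 (7145 per kilobase) exceeded ACADVL (6753) in vehicle, so the order of these levels depends on the transcripts assumed.

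Within the dehydrogenases, ACADVL made up 83.5% and 81.9% of the summed level per kilobase in vehicle and 86.6% and 87.0% in octanoate. The share of ACADM, the enzyme for medium chains, was 12.2% and 13.8% in vehicle and 10.0% and 9.79% in octanoate, although its own level did not differ beyond the replicate spread. ACAA2 held 11.2% and 11.0% of the thiolase level in vehicle and 14.2% and 13.9% in octanoate.

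HADHA and HADHB are transcribed away from each other on chromosome 2, as are ACADSB and its neighbour IKZF5 on chromosome 10. These stretches are shown because HADHA and HADHB both rose, whereas ACADSB fell and IKZF5 was not called: the normalised counts of IKZF5, a zinc finger gene, were 1801 and 1897 in vehicle and 1874 and 1934 in octanoate (log2 difference 0.04, limma adjusted p 0.685). Each runs from the base after the end of the minus-strand gene in GENCODE 29 to the base before the principal transcript of HADHB or the first annotated transcript of ACADSB, is read from RefSeq (GRCh38.p14) on the plus strand, 5′ to 3′, and has capitals at GGGCGG or its complement, the GC box bound by Sp factors. The gene model of HADHB in GENCODE 29 begins at 26243170, inside HADHA, so the annotated genes overlap and the stretch lies ahead of the principal HADHB transcript only.
HADHA-HADHB, chr2:26244727-26244894: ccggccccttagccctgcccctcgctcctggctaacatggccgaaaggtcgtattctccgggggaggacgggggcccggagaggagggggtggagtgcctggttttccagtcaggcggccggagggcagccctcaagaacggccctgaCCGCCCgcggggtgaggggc
IKZF5-ACADSB, chr10:123008818-123008978: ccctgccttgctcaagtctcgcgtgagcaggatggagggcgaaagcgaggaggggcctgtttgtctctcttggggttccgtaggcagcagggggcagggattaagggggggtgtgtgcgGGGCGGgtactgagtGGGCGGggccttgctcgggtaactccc
The former stretch is 168 bases long with a GC content of 71.4% and 1 GC box, and the latter 161 bases with 65.8% and 2 GC boxes.

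Promoter windows from 250 bases before to 50 after a RefSeq start were found for all 10 cycle genes, 12 windows in all, since ACADVL and HADH have 2 each. On either strand, the PPAR response element AGGTCANAGGTCA, in which N is any base, was found in none of the 12, nor was its AGGTCA repeat unit, nor the longer TCAAGGTCA, which contains that unit and is bound by estrogen-related receptors. Among 34796 promoter windows of the same length, 0.0172%, 13.8% and 0.353% hold these motifs. The GC box GGGCGG was found in 8 of the 12 windows, 1 for each cycle gene but ACADL and ACAA2, and is in 44.9% of all windows. These 8 windows had a GC content of 64.0% to 78.0%, against a median of 58.7% over all windows. The 44.9% is therefore not a share among windows of similar GC content. The HADHA and HADHB windows overlap by 194 bases, and the only GC box of the HADHA window is the same one as 1 of the 2 in the HADHB window. CCAAT was found in 1 window, of HADH, and is in 34.6% of all windows; the CRE, TGACGTCA, and the palindromic site of the nuclear respiratory factor were found in none of the 12 and are in 1.84% and 1.23%. These are letter matches in short windows and say nothing of binding there or further away.

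Other genes of fatty acid oxidation were read from lists made for this comparison with earlier results of these data known, and their counts stand beside the 29.9% of all genes tested that were called, 16.2% higher and 13.7% lower. Electrons from the acyl-CoA dehydrogenases pass to the flavoprotein subunits ETFA and ETFB and on to ETFDH. Of these 3 genes, 2 rose: ETFA went from 16326 and 16031 in vehicle to 21776 and 20586 in octanoate (log2 difference 0.39, SE 0.06, limma adjusted p 1.00e-05), and ETFDH by 0.37 on the log2 scale. ETFB had a log2 difference of 0.06 (limma adjusted p 0.560). In the carnitine shuttle, which brings long chains to the cycle, 3 of 7 genes rose and none fell. SLC25A20, the carnitine carrier of the inner membrane, went from 1887 and 1758 to 2714 and 2758 (log2 difference 0.59, SE 0.07, limma adjusted p 1.91e-07), and CPT1A and CPT1C rose by 0.48 and 0.79, while CPT2 had a log2 difference of -0.01 (limma adjusted p 0.945). ETFDH, CPT1A and CPT1C were named after their values were seen.

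Of the 7 auxiliary mitochondrial enzyme genes tested, 2 rose and 1 fell, with a median log2 difference of 0.07. ECI2, an isomerase for unsaturated chains, had a log2 difference of 0.19 (limma adjusted p 0.0485), a call that was lost in 7 of 16 alternatives. HSD17B10, a short-chain hydroxyacyl-CoA dehydrogenase of isoleucine breakdown, had normalised counts of 8465 and 7771 in vehicle and 6785 and 6414 in octanoate (log2 difference -0.30, SE 0.06, limma adjusted p 0.000486). In the list of branched-chain amino acid and lysine breakdown, 1 of 8 genes rose and 2 fell. HIBADH, of valine breakdown, had a log2 difference of 0.24 (limma adjusted p 0.00380) and MCCC2, of leucine breakdown, one of -0.21 (limma adjusted p 0.00580). The calls of HSD17B10, HIBADH and MCCC2 were lost in 2, 4 and 3 of 16 alternatives.

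Peroxisomes run a separate beta-oxidation with their own enzymes, and of its 11 genes 1 rose and 2 fell, a share near the 29.9% called over all genes tested, with a median log2 difference of -0.03. HSD17B4, the multifunctional peroxisomal hydratase and dehydrogenase, had a log2 difference of 0.19 (limma adjusted p 0.0129), which fell short of the threshold in 4 of 16 alternatives. For AMACR, a racemase for branched chains, it was -0.47 (limma adjusted p 0.00129). Of the 8 medium-chain acyl-CoA synthetase genes, whose enzymes activate acids such as octanoate, only ACSM3 and ACSF2 reached a mean of 10. ACSM3 rose from 37.3 and 41.7 to 109 and 88.9 (log2 difference 1.30, SE 0.21, limma adjusted p 5.03e-05), and ACSF2 had a log2 difference of 0.05 (limma adjusted p 0.662).

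Of the 9 PPAR target genes outside the cycle, 7 were called higher and none lower, and the median log2 difference of all 9 was 1.71. This list, too, was made with earlier results of these data known. It holds FABP4, whose log2 difference of 6.68 was the highest of all genes tested. The median of the list is therefore not that of an unselected set. The best supported was ANGPTL4, an inhibitor of lipoprotein lipase, from 506 and 301 normalised counts in vehicle to 15245 and 13952 in octanoate (log2 difference 5.22, SE 0.13, limma adjusted p 3.07e-19). The largest rise of a cycle gene, that of ACAA2, was 0.58 on the same scale. The 2 PPAR targets not called, FABP3 and UCP3, had log2 differences of -0.32 and -0.60 (limma adjusted p 0.15 and 0.068). For each, both octanoate libraries lay below both vehicle libraries. Among 11 regulators of the pathway, 2 rose and 3 fell. PPARGC1B, a coactivator of PPAR and estrogen-related receptors, went from 869 and 900 to 1207 and 1245 (log2 difference 0.47, SE 0.08, limma adjusted p 3.36e-05), and ESRRA, an estrogen-related receptor named after its values were seen, rose by 0.33. KLF15, a transcription factor of fuel metabolism, fell by 0.46 (limma adjusted p 0.000638). The other regulators called lower, also named after their values were seen, were the fatty acid receptor PPARG and RXRA, a partner with which PPARs bind DNA. PPARG went from 6793 and 6534 to 6025 and 5920 (log2 difference -0.16, limma adjusted p 0.0397), and RXRA from 2888 and 2985 to 2617 and 2448 (log2 difference -0.21, limma adjusted p 0.0128). The PPARG call was lost in 6 of 16 alternatives, among them leaving out any 1 library, and the RXRA call in 4, among them without vehicle 2 (limma adjusted p 0.0994) and without octanoate 2 (0.159).

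**Figure D4:**
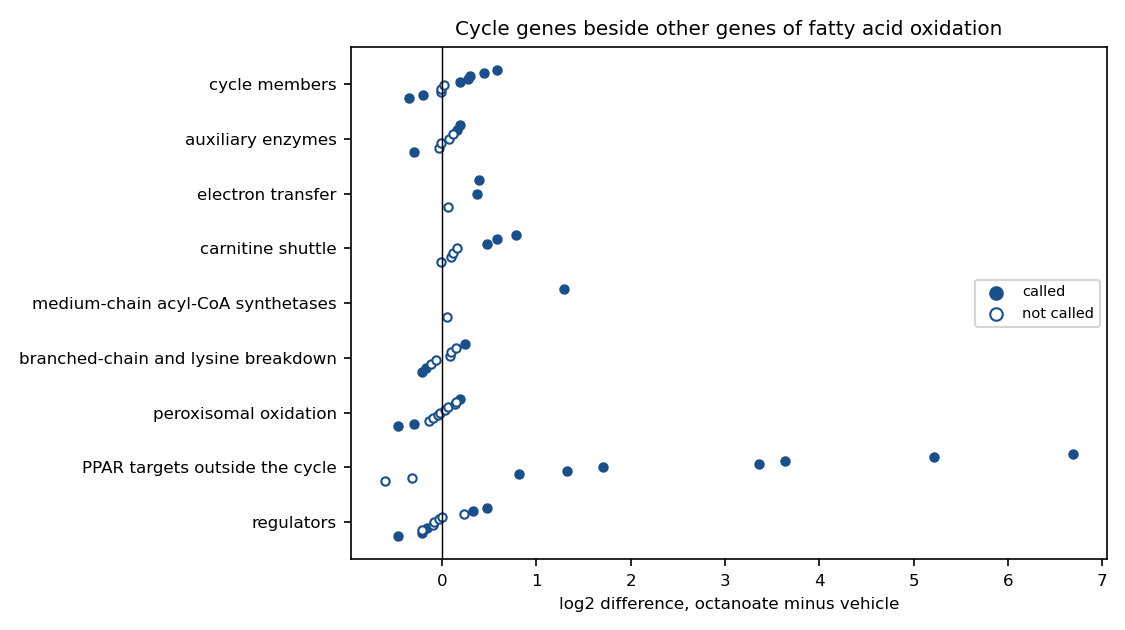
Log2 difference between octanoate and vehicle (horizontal axis) for each tested gene of the cycle and of the other lists (rows), filled where called and open where not. The cycle genes lie between -0.35 and 0.58, and the 7 called PPAR targets outside the cycle lie above that range.

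Genes with the pattern most like that of ACAA2 were sought among the other 9002 genes with a mean of at least 1000, by the Euclidean distance between centred log2 values over the 4 libraries. The nearest were MPRIP at 0.0215, PLEKHG5 at 0.0244 and TNFRSF10A, a death receptor gene, at 0.0289. MPRIP, which encodes a myosin phosphatase adaptor, had normalised counts of 33883 and 32433 in vehicle and 49300 and 48464 in octanoate. With 4 libraries in 2 groups, such a distance describes little beyond the size of the rise.

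Of the 10 cycle genes, 6 had an adjusted p under 0.05 in the authors' deposited table, where 12.9% of all 33533 genes listed did. These were ACADVL, ACADSB, HADHA, HADHB, ECHS1 and ACAA2, with log2 fold changes of 0.45, -0.35, 0.28, 0.19, -0.21 and 0.58 in the authors' deposited table. The same genes were called with the same sign in limma, which called ACADS as well. The 33533 genes include ones below the mean of 10 required for limma, whereas 8 of the 10 cycle genes had a mean of at least 1000. The 12.9% is therefore not a share among genes of similar level.

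**Figure D5:**
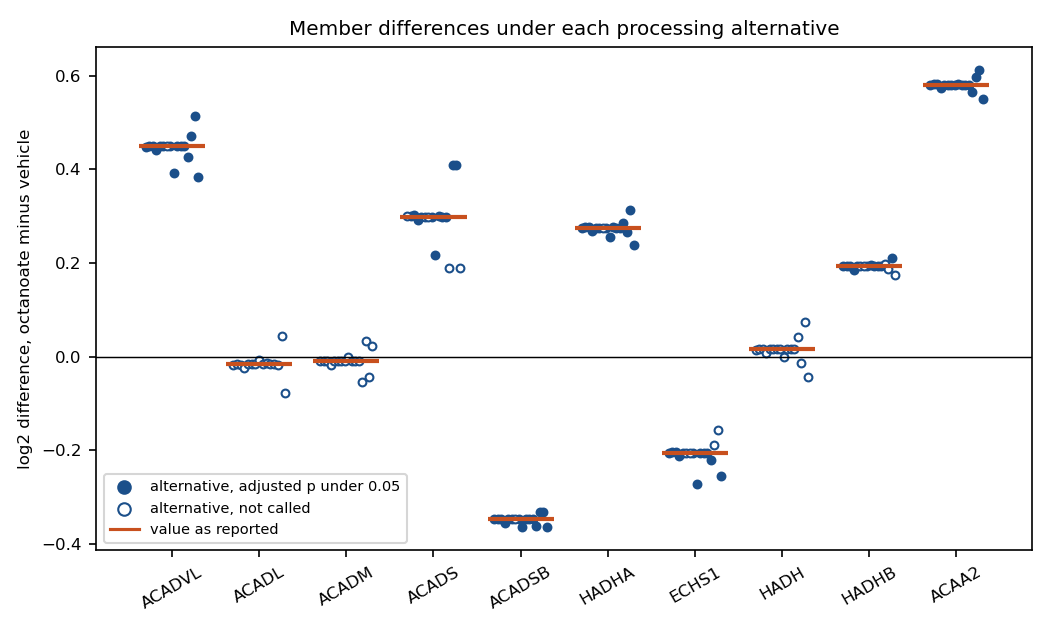
Log2 difference of each cycle gene (vertical axis) under each of the 16 processing alternatives (points, filled where the adjusted p was under 0.05) and as reported (orange lines). ACAA2 is called in all 16 alternatives, ACADVL, HADHA and ACADSB in 15, ECHS1 in 12, ACADS and HADHB in 11, and ACADM and HADH in none; ACADL was tested in 15 and called in none.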

How the data were processed

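RNA-seq was analysed in 4 libraries. Per the submitters' processing notes, bcl2fastq 2.17, Trim Galore, STAR 2.4, Picard, HTSeq 0.9.1 and DESeq2 were used with hg38; the annotation and the use of strand are not given in the sources used here. The authors deposited a signal per gene and library, by its name a count normalised in DESeq2. Per the file headers, their comparison table gives p-values and adjusted p-values, a test score, the log2 fold change and its SE, and the mean signal.

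All positive values (100% per library, tolerance 0.01) were whole multiples of the library's smallest one, so whole reads were recovered. Log2 of the normalised count plus 1 was fitted with limma 3.58.1 (R 4.3.3), using an intensity trend and treatment as the only term, over 20250 genes with a mean of at least 10; p-values were two-sided. Precision rests on 2 libraries per group. The alternatives included edgeR 4.0.16 and DESeq2 1.42.0 on the recovered reads, which called 6480 and 4180 genes. Fits were tested on simulated data. Gene positions, lengths and overlaps came from GENCODE 29 (GRCh38) by symbol, and shared sequence from blastn 2.17.0 (95% identity or more across 100 bases or more). The members and lists were chosen with earlier results of these data known. Named were all cycle genes, the best supported called gene of each list and direction, and the 3 genes nearest to the most changed cycle gene. Besides the genes marked so above, the lineage markers MITF, S100B and PMEL and the PPAR targets FABP3, FABP4 and UCP3 were named after their values were seen. A blood cell marker is not reported here.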

Additional observations from a re-analysis of the deposited data

How the results depend on the processing

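Against 6048 genes called, with 5 cycle genes higher and 2 lower, 2595, 3 and 1 were called with no filter on low values and 1625, 1 and 0 with no intensity trend. Without the trend the adjusted p was 0.0335 for ACAA2, 0.0602 for ACADVL, 0.0601 for ACADSB, 0.0942 for HADHA, 0.141 for HADHB, 0.161 for ECHS1 and 0.229 for ACADS. Leaving out each library in turn gave 4295 to 4757 genes called, 3 to 5 cycle genes higher and 1 to 2 lower. No called cycle gene changed sign in any of the 16 alternatives; ACADL had a value in 15, since the filter at a mean of 50 left it out. Among those not called, leaving out a library gave log2 differences from -0.0772 (without vehicle 2) to 0.0439 (without vehicle 1) for ACADL, -0.0553 (without octanoate 1) to 0.0342 (without octanoate 2) for ACADM, and -0.0428 (without vehicle 2) to 0.0728 (without vehicle 1) for HADH. The sign also changed for ACADM without vehicle 2 (0.0235) and for HADH without octanoate 2 (-0.0128). Removal of trends on GC content and length gave HADH -0.0013. That correction, added after the data were seen along with its protein-coding gene set, covers 10 of 10 cycle genes but 69.9% of the genes tested, so as a check over all of those it is void. It lowered the share of calls that were higher from 52.2% to 41.9% over the same genes, and the same 5 and 2 cycle gene counts remained. The log2 difference of ACADVL was 0.39 and that of ACADS 0.22 with it. The labels do not say what replicate numbers mark: with the replicate block 8376 genes, 5 cycle genes higher and 2 lower were called, and same-numbered libraries had correlated deviations across genes (r = 0.126, 2 pairs only). Where a library was left out, the lone library of its group was assumed to vary like the other group.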
